A study of Caenorhabditis elegans with 2 samples.

Results

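AMA-1, the large catalytic subunit of RNA polymerase II, was immunoprecipitated with its bound DNA from whole L1 larvae of Caenorhabditis elegans strain N2, the wild-type reference strain, and the DNA was sequenced in 2 biological replicates. Both were unmodified larvae, pooled male and female, of an age given as unknown, and they formed 1 group with no treatment. Each replicate has a list of 30000 regions on build ce11 with a signal value that the authors' peak caller gave to each region. The regions described here are the 5000 of replicate 2 with the highest signal among those that share no base with any of the 30000 regions of replicate 1. Of the 30000 replicate 2 regions, 13202 met none of replicate 1 and 16798 met at least 1. Absence therefore means absence from replicate 1's list, whose signal runs down to 3.11, and not absence of AMA-1.

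Polymerase II is recruited at promoters, often slows shortly downstream, travels through the gene and slows again past the 3′ end, where transcripts are cleaved and released. A region of AMA-1 enrichment can thus lie upstream, at the start, in the body or past the end of a gene. The L1 is the first larval stage of the worm and ends in a moult, in which the epidermis secretes a new collagen cuticle and the old one is shed. Genes for cuticle collagens and other parts of the apical matrix are known to be transcribed in waves once in each moulting cycle.

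Sequences are shown, mainly at the summits of the highest such regions, because cuticle collagen genes led these regions. They were read from the RefSeq genome on build WBcel235, the assembly also called ce11, 5′ to 3′ on the strand of the gene. In the first 4, capitals mark coding bases. The stretches of col-90 (chrIII:7948890-7948973), dpy-4 (chrIV:14986638-14986752) and sqt-1 (chrII:11337645-11337749) begin with the start codon, and that of sqt-3 (chrV:12353062-12353181) lies inside the coding sequence.
col-90: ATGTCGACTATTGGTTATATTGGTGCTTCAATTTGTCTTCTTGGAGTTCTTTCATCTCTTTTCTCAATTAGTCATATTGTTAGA
sqt-3: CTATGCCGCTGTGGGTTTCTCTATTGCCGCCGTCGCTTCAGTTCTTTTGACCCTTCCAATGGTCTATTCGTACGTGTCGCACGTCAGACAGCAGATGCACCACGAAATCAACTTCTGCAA
dpy-4: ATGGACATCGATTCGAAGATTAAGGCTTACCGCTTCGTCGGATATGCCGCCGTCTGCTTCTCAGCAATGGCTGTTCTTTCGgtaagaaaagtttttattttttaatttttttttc
sqt-1: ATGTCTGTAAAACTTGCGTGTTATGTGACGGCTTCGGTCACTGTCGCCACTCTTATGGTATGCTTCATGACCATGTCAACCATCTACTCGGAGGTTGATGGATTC

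The region with the highest signal lay past the 3′ end of the collagen gene rol-8, over the annotated non-coding RNA gene ZK1290.20. The bases around its summit (chrII:7545503-7545622, minus strand) follow, with the bases of that non-coding gene in capitals. Next is the hairpin of lin-4 (chrII:5902254-5902347, plus strand), a microRNA that times larval development, with bases 2 to 8 of each of its products, the seed positions, in capitals. A listed region with signal 30.5 overlapped the first bases of this hairpin. The last sequence is the upstream summit of the collagen gene dpy-9 (chrIV:259240-259359, minus strand), with signal 10.4 and rank 3641 in the replicate 2 list. It is not one of the highest regions and was chosen because it holds AGGTCA, in capitals. AGGTCA is a core motif that many nuclear hormone receptors bind. As a chosen example, this sequence does not show how common the word is.
ZK1290.20: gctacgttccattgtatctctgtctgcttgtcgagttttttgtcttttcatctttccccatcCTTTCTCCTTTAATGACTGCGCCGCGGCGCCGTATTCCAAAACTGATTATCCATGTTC
lin-4 hairpin: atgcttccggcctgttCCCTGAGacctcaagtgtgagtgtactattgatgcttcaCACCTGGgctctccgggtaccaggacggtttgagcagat
dpy-9: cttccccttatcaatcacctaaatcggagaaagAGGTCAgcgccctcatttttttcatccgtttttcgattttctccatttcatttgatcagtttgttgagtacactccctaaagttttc

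The 5000 regions were selected on signal, so their levels are a description. Their signal ran from 4.43 to 73.3 with a median of 6.18, and their ranks in the replicate 2 list from 20 to 15452. The lowest region inside the limit had a signal of 4.42566 and the first one outside it 4.42564, so the limit falls in a smooth run of values. Only 6 of them were among the first 100 regions of replicate 2, 43 among the first 500 and 100 among the first 1000. The remaining regions at the top of replicate 2, 19 of them above the highest of these 5000, met a replicate 1 region. All but a few had one width, 350 bp in 99.84% of them, against a common width of 340 bp in replicate 1. The exceptions include narrower regions of high signal that are named below. They lie at and past sqt-3, past F41F3.3, at the start of F53F1.4, at tos-1 and at mdt-26 (chrII:5661975-5662096). A narrower region has less room to meet a replicate 1 region, and the part of width in their absence was not tested.

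The distance to replicate 1 splits the regions into neighbours of listed regions and isolated ones. The gap to the nearest replicate 1 region had a median of 720 bp and reached 103082 bp. It was at most 500 bp at 2180 regions, and at most 100 bp at 776 of these. It exceeded 2000 bp at 1602 regions and 10000 bp at 480. The set made the other way round, the 5000 highest replicate 1 regions that meet none of replicate 2, had a median gap of 390 bp, with 762 over 2000 bp and 129 over 10000 bp. The replicate 2 regions thus lay in isolation more often than the replicate 1 regions, although both sets were made by the same rule.

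**Figure D1:**
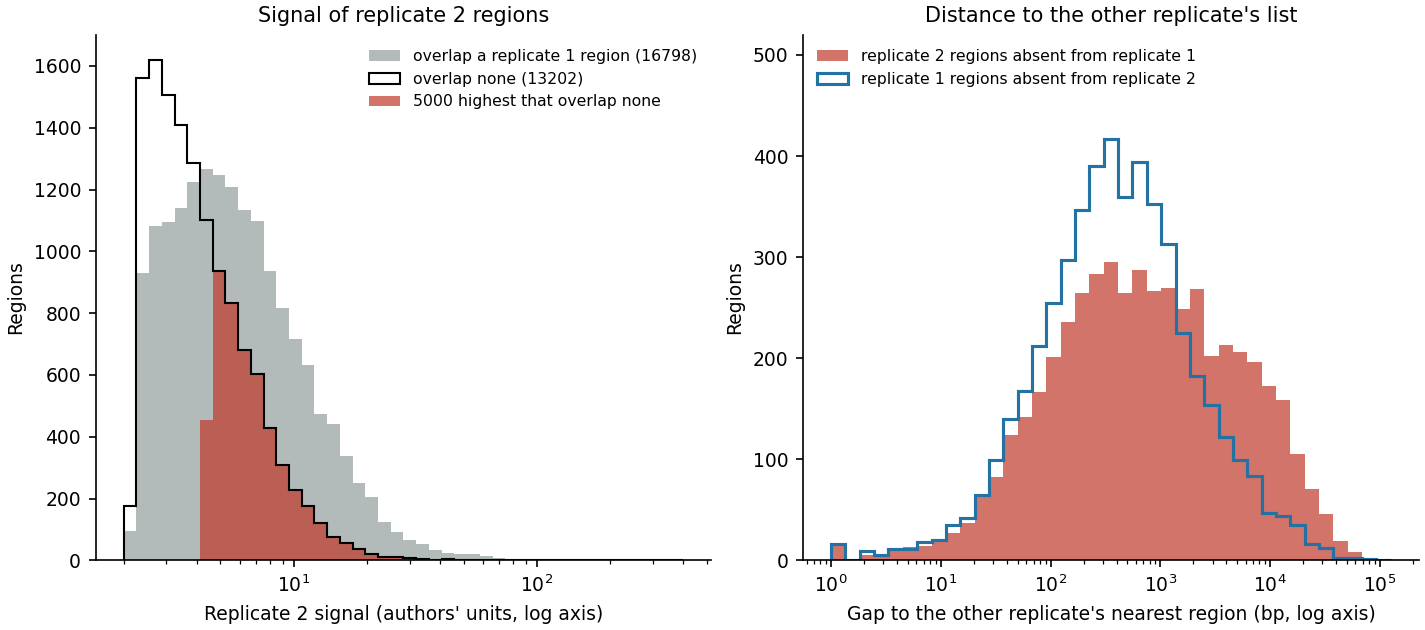
Left, histogram of replicate 2 signal (log axis) for regions that overlap a replicate 1 region, for those that overlap none and for the 5000 highest of the latter, which fill the upper part of that distribution from 4.43. Right, histogram of the gap in bp (log axis) to the other replicate's nearest region for both sets of 5000, with medians of 720 bp and 390 bp.

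A list of 30000 regions that the authors made from both replicates combined, and their 1328 consensus regions, allow a further look. Since these use the same 2 libraries, they describe the regions and are no separate evidence. Of the 5000 regions, 3262 met a pooled region, which is 65.2% (exact 95% binomial interval 63.9 to 66.6, for counting only). The share was 99.1% for the 5000 highest shared regions of replicate 2 and 86.8% for the set absent from replicate 2. Consensus regions met 18 of them, the 9 with the highest signal included. Several others of the 18 met a consensus region of much higher signal and stood close to a replicate 1 region. At mdt-26, which encodes a Mediator subunit, the gap was 26 bp and the consensus signal 316 against 29.1 for the region itself. At icl-1, which encodes the glyoxylate enzymes, the gap was 20 bp, and at fil-2 it was 3 bp.

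By position, these regions stood less often at 5′ ends than the shared ones. Summits within 500 bp of the 5′ end of a protein-coding gene made up 21.1% (interval 19.996 to 22.3) of them, 34.7% (33.4 to 36.1) of the 5000 highest shared regions and 25.8% (24.6 to 27.1) of the set absent from replicate 2. Shared regions in the same signal range, 10433 in number, had 31.8% at 5′ ends. Gene bodies held 42.0% (40.6 to 43.4), 32.1% of the highest shared regions and 45.5% of the set absent from replicate 2. Intergenic summits were 19.6% of them, against 14.4% and 13.7%. The shares at 3′ ends lay closer, at 15.9%, 16.7% and 14.3%. All 30000 replicate 2 regions had 24.9% at 5′ ends, 15.1% at 3′ ends, 41.9% in gene bodies and 16.9% in intergenic sequence. The gene-body share of the 5000 was thus that of the whole list. Among 5′-end summits, 49.1% (46.0 to 52.1) lay upstream of the gene, with a median position of 6.5 bp downstream of the start. Of the shared summits at 5′ ends, 60.3% (58.0 to 62.6) lay upstream, with a median 65 bp before the start. In the set absent from replicate 2, 46.0% (43.3 to 48.8) lay upstream, with a median 37 bp downstream of the start.

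The X chromosome held 948 of the regions, 19.0% (interval 17.9 to 20.1), against 13.0% (12.1 to 13.9) of the highest shared regions and 12.8% (11.9 to 13.8) of the set absent from replicate 2. It makes up 17.7% of the genome and held 16.4% of all 30000 replicate 2 regions. Of the regions over 2000 bp from replicate 1, 23.4% (21.4 to 25.6) lay on X, and of those within 500 bp, 15.0% (13.5 to 16.5). Chromosome III showed the opposite, with 13.7% of the regions, 19.2% of the highest shared ones and 9.7% of those over 2000 bp away. With each chromosome cut into 3 equal parts, the central part held 42.8% (41.4 to 44.2) of the regions and 48.4% (47.0 to 49.8) of the highest shared ones. It held 42.5% (41.2 to 43.9) of the set absent from replicate 2, close to the share of the regions. The share was 36.3% (34.0 to 38.7) for the regions over 2000 bp away.

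**Figure D2:**
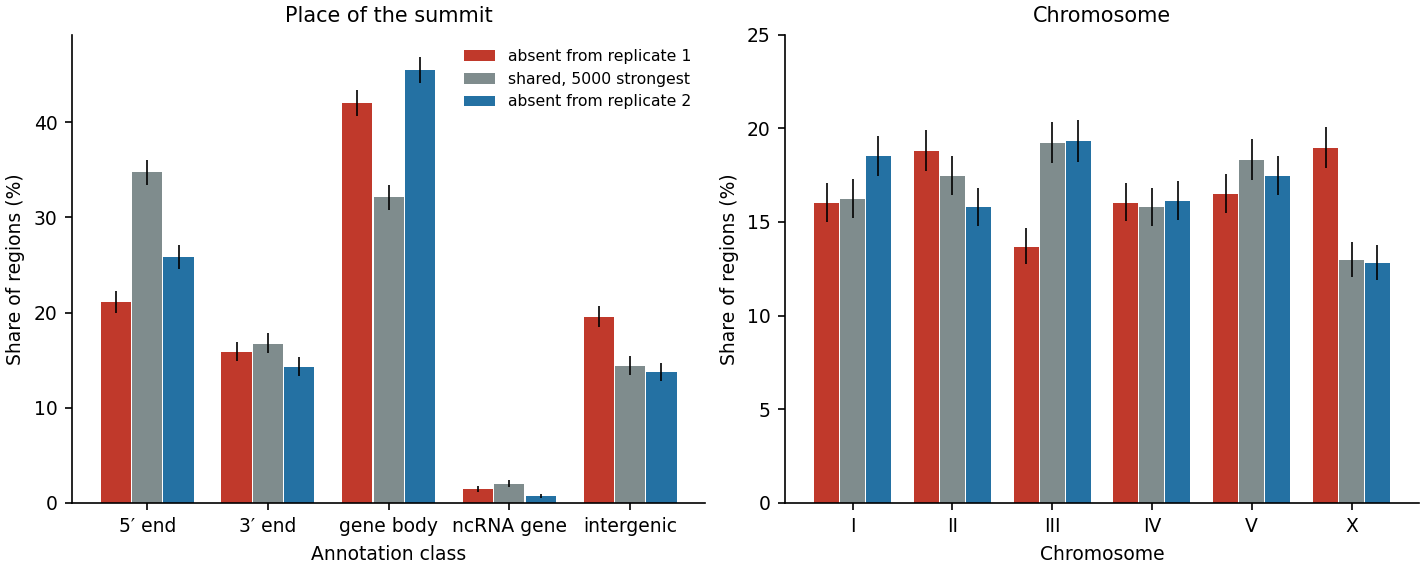
Share of regions (%) by place of the summit (left) and by chromosome (right) for the 5000 regions absent from replicate 1, the 5000 highest shared regions of replicate 2 and the 5000 highest regions absent from replicate 2. Error bars are exact 95% binomial intervals, for counting only. The regions absent from replicate 1 have the lowest share at 5′ ends (21.1%) and the highest on X (19.0%).

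A gene was taken to carry a region when the region's summit fell inside the gene or in the 500 bp before its 5′ end. By this rule 2602 of 19973 protein-coding genes carried at least 1 of the regions, a background of 13.0%. Of these genes, 824 had no replicate 1 region of any rank in the same window, which is 4.13% of all genes. For comparison, 13.3% of genes carried one of the 5000 highest shared regions and 15.6% one of the set absent from replicate 2. Any replicate 1 region was carried by 42.6% and any replicate 2 region by 44.8%. Genes with such a region had a median length of 3534 bp against 2027 bp for all, and the part of length in the counts was not tested. Whole larvae hold all tissues, and replicate 2 regions of any rank stood at 42 of 53 muscle, 48 of 85 intestinal, 35 of 39 neuronal and 22 of 75 germline genes, and at 0 of 31 major sperm protein genes. Fewer cells transcribing a gene cannot be told apart from less polymerase per cell.

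Genes of the epidermis and its cuticle carried these regions more often than the background. In 6 lists combined (cuticle collagens, hedgehog-related and patched-related genes, apical matrix and astacins, moulting regulators, epidermal structure and epidermal antimicrobial peptides), 137 of 423 genes, 32.4%, carried one, against 12.6% of other genes. With no replicate 1 region in the window there were 101 genes, 23.9%, against 3.70% of other genes. The same lists carried the highest shared regions in 9.46% of genes and regions of the set absent from replicate 2 in 7.80%, against 13.4% and 15.8% of other genes. The highest regions were those most often at epidermal genes. With 500 bp past the 3′ end added, these 423 genes held 33 of the first 100 regions and 17.2% of the regions ranked 101 to 500. They held 9.6% of those ranked 501 to 1000, 7.27% of those ranked 1001 to 2500 and 5.52% of those ranked 2501 to 5000. In this window 15.4% of all protein-coding genes carried a region, which is a share of genes and not of regions.

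Cuticle collagens, the structural proteins of the worm's exoskeleton, held 25 of the first 100 regions, with 500 bp past the 3′ end counted. They held 24 of the 400 ranked 101 to 500 and 15 of the 500 ranked 501 to 1000. Of the 1500 ranked 1001 to 2500 they held 29, and of the 2500 ranked 2501 to 5000 they held 25. Of 176 collagen genes, 48 (27.3%, interval 20.8 to 34.5) carried a region, 45 of them with no replicate 1 region, against the background of 13.0% and 4.13%. Only 10 carried one of the highest shared regions and 10 one of the set absent from replicate 2. Collagen genes are short, with a median length of 1220 bp, below the 2027 bp of all protein-coding genes. The regions lay at both ends of the genes. Upstream of the 5′ end 12 genes (6.82%) had a region, against 2.79% of all protein-coding genes. Inside the gene 36 (20.5%) had one before the midpoint and 22 (12.5%) after it, against 6.34% and 6.69%. Within 500 bp past the 3′ end 37 (21.0%) had one, against 3.88%. Signal was highest past the 3′ end, with a median of 12.9, against 9.06 before the midpoint and 6.94 after it. At 26 collagen genes (14.8%) a region stood both on the 5′ side and past the 3′ end, against 1.10% of all genes.

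Single collagen genes show these paired ends. At sqt-3, whose mutants are squat, replicate 2 had 44.4 at 377 bp from the 5′ end and 24.7 and 45.3 past the 3′ end, and replicate 1 had no listed region within 1985 bp of the first. At dpy-13, whose mutants are short and dumpy, replicate 2 had 27.1 at 96 bp, 15.8 after the midpoint and 28.8 at 145 bp past the end. The nearest replicate 1 region was 3107 bp from the first of these. At rol-8, whose mutants roll, the region past the end had 73.3, rank 20 of the whole list, and that before the midpoint 18.2. Past col-17 the signal was 56.9, and at the start of col-90 it was 55.8. At dpy-4 it was 40.3 at 86 bp and 19.6 past the end. The dpy-4 region also lies in an intron of atln-2, which encodes an atlastin of the endoplasmic reticulum, and the 2 genes cannot be told apart by it. The collagens sqt-1 (33.9 and 19.6), dpy-5 (32.4 and 24.4) and rol-6 (20.2 and 23.9) each had a region before the midpoint and one past the end. At dpy-5 these lay 1391 and 359 bp from replicate 1, and at sqt-3, dpy-13, rol-8, dpy-4, sqt-1 and rol-6 both lay at least 1985 bp away. The rol-6 region of 20.2 lay near the midpoint, at 574 bp of 1190 bp, and a further one at 56 bp had 14.5.

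Of the 119 pairings of such a region with a collagen gene, counted with 500 bp past the 3′ end, 10.9% were within 500 bp of a replicate 1 region, and the median gap was 4252 bp. Over all protein-coding genes 43.8% of pairings were that close, with a median gap of 730 bp. The regions at ribosomal protein genes were placed otherwise, with 8 of 8 pairings within 500 bp. For chaperones the share was 75%, and for DNA replication genes 77.8%. Long gaps were not confined to the epidermal lists, since detoxification genes had 20.9% within 500 bp and a median gap of 4016 bp, C-type lectins 12.5%, F-box genes 14.3% and chemoreceptors 25%. Epidermal antimicrobial peptide genes had 54.5%.

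**Figure D3:**
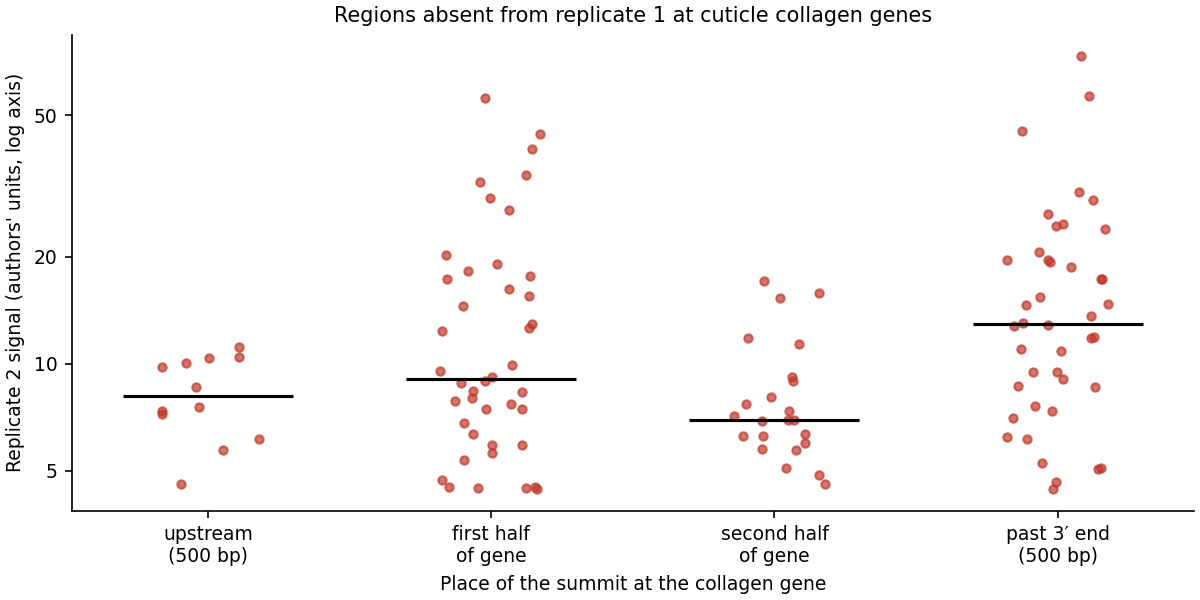
Replicate 2 signal (log axis) of each region absent from replicate 1 at cuticle collagen genes, by the place of its summit along the gene. Each point is 1 pairing of region and gene and each line a median, at 8.09 upstream, 9.06 before the midpoint, 6.94 after it and 12.9 past the 3′ end.

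Hedgehog-related and patched-related proteins are secreted and membrane proteins of the epidermis that have diverged from the hedgehog pathway of other animals. Of 86 such genes, 29 (33.7%, interval 23.9 to 44.7) carried a region and 22 did so with no replicate 1 region. The patched-related gene ptr-4 on X had a region with signal 21.2 in an intron, and none of replicate 1 within 4450 bp. Another, ptr-18, had 20.8 near its 5′ end with a gap of 16273 bp, and the hedgehog-related gene qua-1 had 16.3 with a gap of 11734 bp.

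The apical matrix list holds zona pellucida proteins, lipocalins and astacin proteases that build or trim the cuticle. Of its 98 genes 30 (30.6%, interval 21.7 to 40.7) carried a region and 22 had none of replicate 1, while 3 carried a region of the set absent from replicate 2. The astacin gene nas-30 had the highest, at 25.8, and had 1 replicate 1 region of signal 7.23. At mlt-11, which encodes a protease inhibitor needed for moulting, 10 of the 14 replicate 2 regions were among the 5000, from 4.76 to 20.4, and replicate 1 had none. The lipocalin-related gene lpr-4 had 17.1 with no replicate 1 region within 8952 bp. The zona pellucida genes noah-1 and noah-2 had 6 and 7 regions, up to 14.5 and 14.0.

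Regulators of moulting and of the epidermis carried a region at 14 of 23 genes (60.9%, interval 38.5 to 80.3), and 3 of the 14 had no replicate 1 region. These genes are long, with a median of 5472 bp. The highest shared regions stood at 7 of the 23 (30.4%), against 13.3% of all genes. The set absent from replicate 2 stood at 3 of the 23 (13.0%), against 15.6%. The genes free of replicate 1 were lin-42, nhr-23 and bed-3. At lin-42, a relative of the clock gene period that times the moults, 21 of 26 replicate 2 regions were among the 5000, with signal from 4.62 to 27.0 and a median of 11.6. Replicate 1 listed none over its 19124 bp, and 17 of the 21, with 1 more past the 3′ end, formed a run over 11369 bp. The nuclear hormone receptor gene nhr-23, which is required for moulting, had 5 regions up to 18.2, and the zinc-finger gene bed-3 had 4 up to 16.6. The repressor gene blmp-1 had 5 regions up to 16.5 and 2 replicate 1 regions up to 3.86.

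Structural genes of the epidermis carried a region at 10 of 22 (45.5%, interval 24.4 to 67.8), with 3 free of replicate 1. They are long, with a median of 6381.5 bp, and were above the background in the other sets too. The highest shared regions stood at 5 of them (22.7%) and the set absent from replicate 2 at 7 (31.8%), against 13.3% and 15.6% of all genes. The peptidase-like gene acn-1, needed for moulting, had 17.4 with a gap of 7897 bp. The polarity gene let-413 (9.68) and the attachment gene mup-4 (9.54) each had 4 replicate 1 regions up to 12.4 and 12.8. Of 21 antimicrobial peptide genes of the epidermis, 7 carried a region, 6 free of replicate 1, with cnc-4 at 13.4, nlp-30 at 11.5 and nlp-31 at 11.2. A region of 35.2 lay past the 3′ end of nlp-33, 251 bp from a replicate 1 region.

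**Figure D4:**
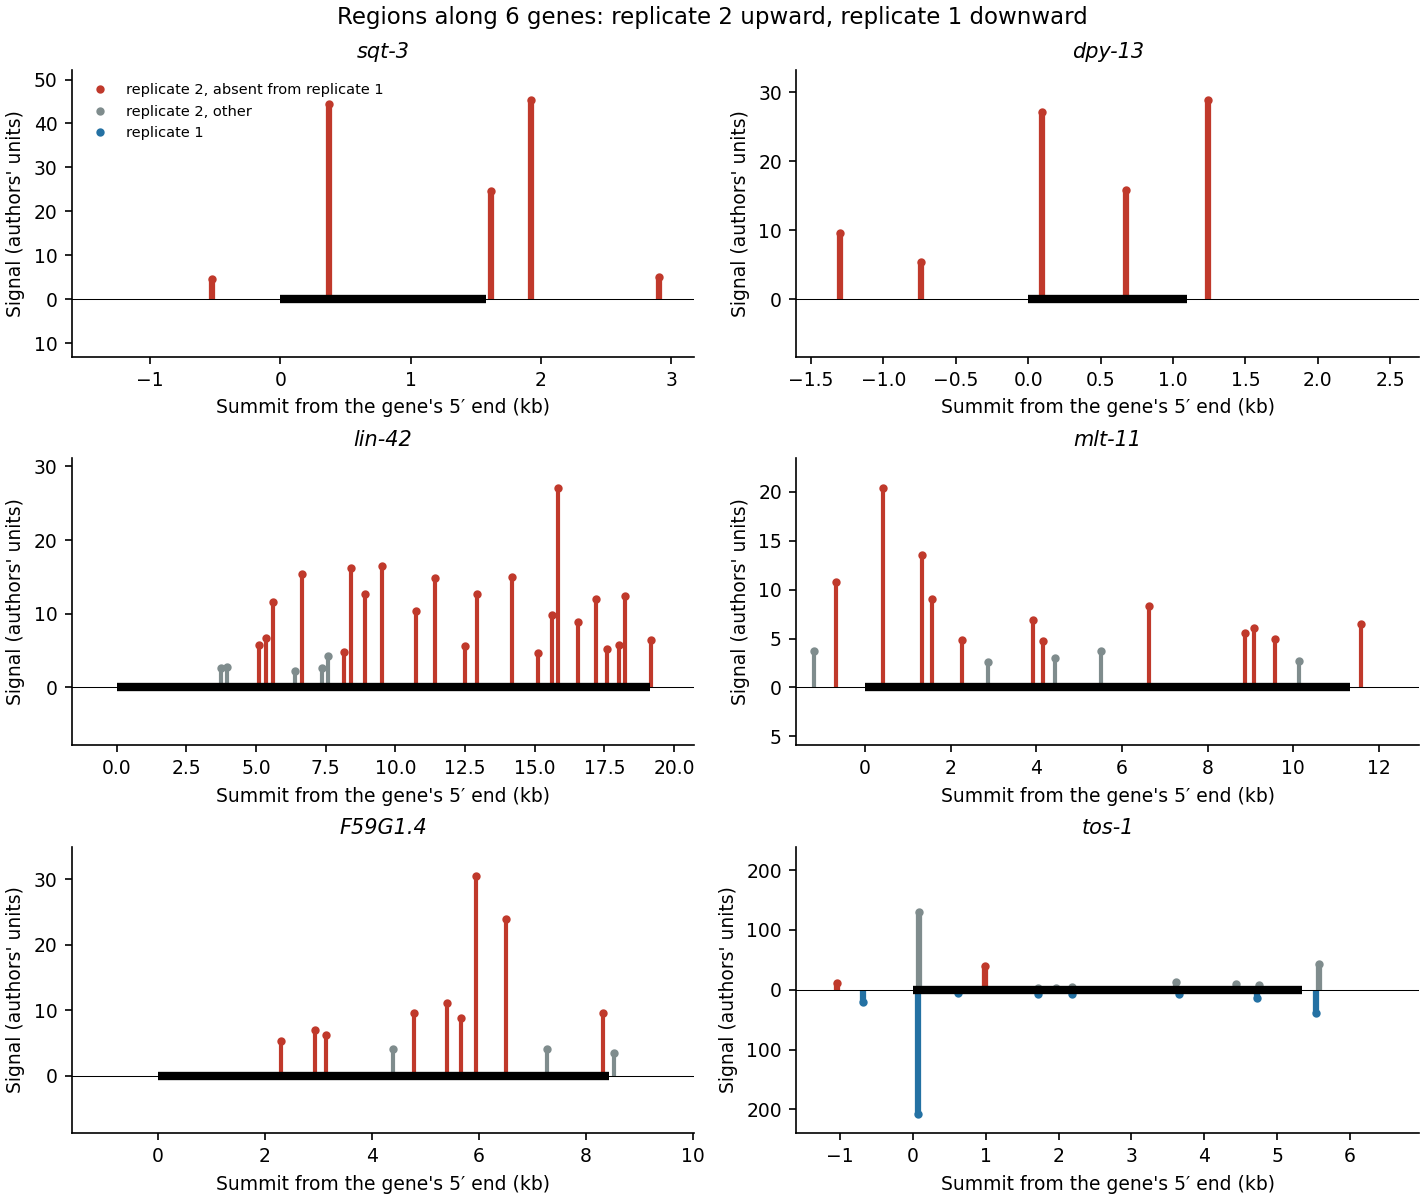
Summits along 6 genes by distance from the 5′ end (kb), with replicate 2 signal upward and replicate 1 signal downward, each in the authors' units. The black bar is the gene, and regions in the flanks are drawn too. Replicate 1 has no region at sqt-3, dpy-13, lin-42, mlt-11 or F59G1.4, and up to 208 at tos-1.

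Lists of other tissues and functions ran from above the background to none. Muscle structure genes carried a region at 21 of 53 (39.6%, interval 26.5 to 54.0), but 18 of these had a replicate 1 region as well. Examples are unc-112, the kindlin gene, at 17.2 with a gap of 47 bp, and the myosin light chain gene mlc-3. The latter had 17.1 with a gap of 68 bp. The perlecan gene unc-52 had 10.6 with a gap of 20717 bp. Of the muscle pairings, counted with 500 bp past the 3′ end, 34.2% were within 500 bp of a replicate 1 region. Their median gap was 1283 bp, against 43.8% and 730 bp over all protein-coding genes. Neuronal and synaptic genes, with a median length of 7375 bp, carried one at 12 of 39, and 1 of the 12 had none of replicate 1. The set absent from replicate 2 also stood at 12 of the 39. The synaptobrevin gene snb-1 had 10.5 with a gap of 39 bp. Intestinal genes stood at 15 of 85 (17.6%, interval 10.2 to 27.4), with spp-16 at 13.4. Germline genes stood at 11 of 75 (14.7%, 7.56 to 24.7), with egg-6 at 16.5. Neuropeptide and insulin genes stood at 18 of 131 (13.7%, 8.35 to 20.8) and detoxification genes at 25 of 185 (13.5%, 8.94 to 19.3). These intervals, from intestinal to detoxification genes, all hold the background of 13.0%. Of the neuropeptide and insulin genes 11 (8.40%) had a region and none of replicate 1, and of the detoxification genes 20 (10.8%). Over all protein-coding genes that share was 4.13%. Of the chemoreceptors 18 of 1310 (1.37%) carried one, led by srx-41 at 17.5.

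Genes of growth and of basic cell function carried shared regions more often than these regions. Ribosomal protein genes carried one at 5 of 82 and a shared one at 53 of 82. The highest, at rpl-1, had 15.6 and a replicate 1 region 1 bp away. Respiratory chain genes carried one at 6 of 70 against 30 with a shared region, and chaperones at 11 of 62 against 29. The chaperonin gene cct-5 had 13.8 with a gap of 43 bp. Proton pump genes stood at 4 of 21 against 14, replication genes at 6 of 52 against 11, and mitochondrial ribosomal genes at 5 of 70 against 19. Translation factors stood at 9 of 40 against 13, and lipid genes at 24 of 114 against 32 (fasn-1, the fatty acid synthase gene, at 12.4). Not all of these lists lay below the background of 13.0%. Lipid genes had 21.1% (interval 14.0 to 29.7), above it. Translation factors (22.5%), proton pump genes (19.0%) and chaperones (17.7%) were above it too, with intervals that hold it. In each of these lists the set absent from replicate 2 stood at more genes, with 22 of 40 translation factors. The next 4 lists did not carry shared regions more often. Nuclear hormone receptors stood at 46 of 274 (16.8%, interval 12.6 to 21.8), which holds the background, against 38 with a shared region. They carried the set absent from replicate 2 at 74. Homeobox genes stood at 11 of 88 (12.5%), near the background, against 7. Lectins stood at 6 of 240 against 6, and F-box genes at 6 of 322 against 3. Core histone genes had 0 of 72, which allows up to 4.99%, and major sperm protein genes 0 of 31, which allows up to 11.2%, by the upper exact 95% bound.

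**Figure D5:**
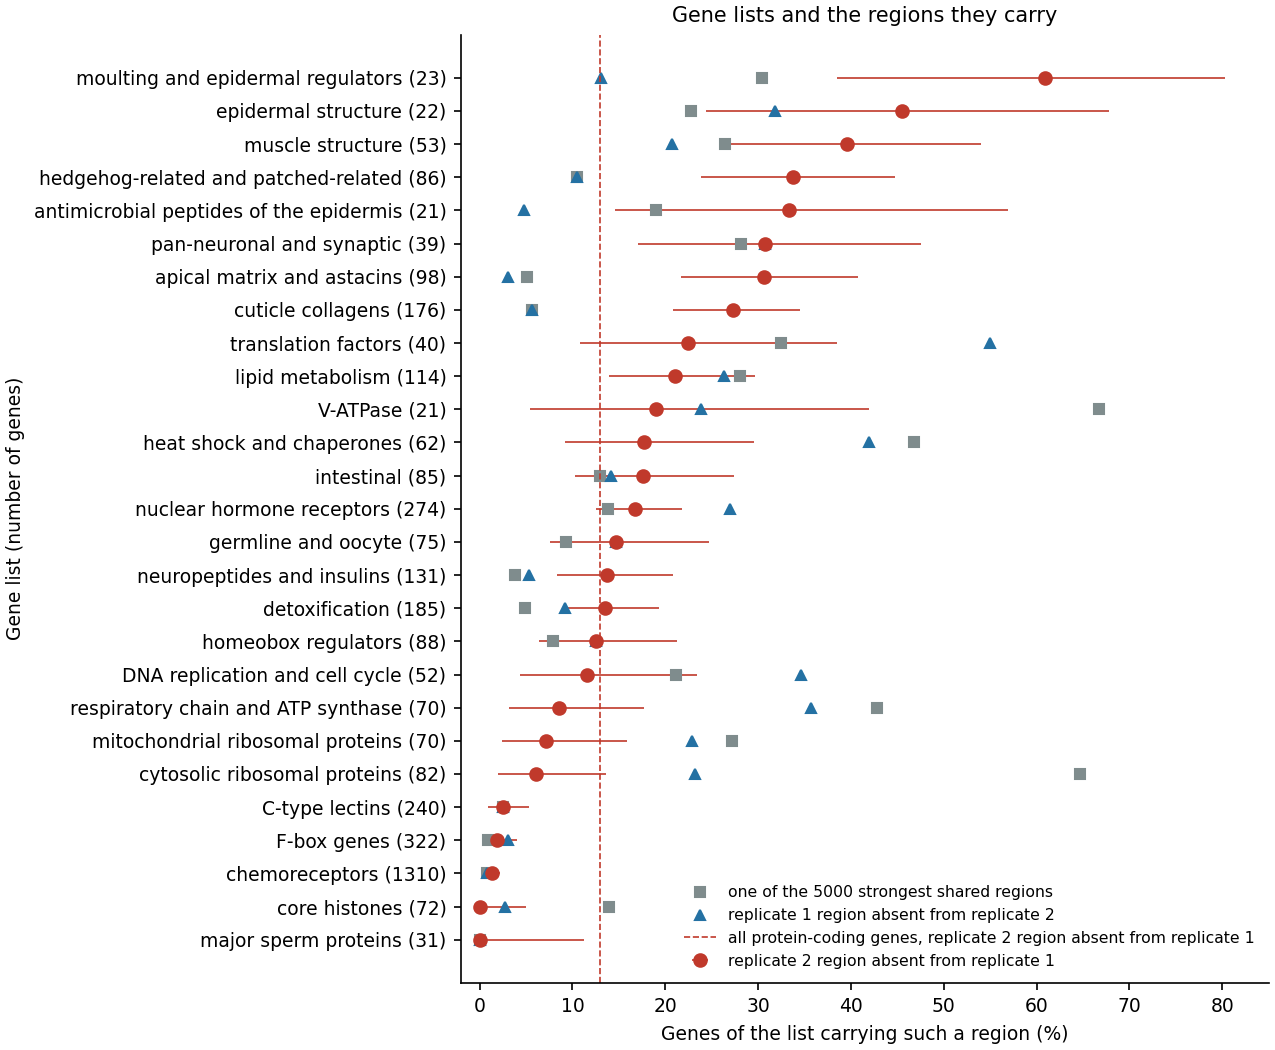
Percent of genes in each list that carried a region absent from replicate 1 (circles with exact 95% binomial intervals), one of the 5000 highest shared regions (squares) or one of the 5000 highest regions absent from replicate 2 (triangles). The dashed line is the share of all protein-coding genes, 13.0%. Collagens stand at 27.3% against 5.68% for both other sets, and ribosomal proteins at 6.10% against 64.6% for shared regions.

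Among the highest genes outside these lists, F41F3.3 on V had 46.4 at 29 bp from its 5′ end, and a second region of 42.2 past its 3′ end. F53F1.4 on V had the same layout, with 41.5 at 70 bp and 34.6 past the end. Neither had a replicate 1 region. The gene phy-2, which encodes an enzyme that hydroxylates prolines of collagen, had 6 regions up to 28.6 and 1 replicate 1 region of 4.73. ZC434.3 had 28.0 with no replicate 1 region. At other high genes replicate 1 listed regions too. At tos-1, a gene used to report splicing, the region of 40.1 at 988 bp from the 5′ end stood 112 bp from a replicate 1 region of 6.26, and the peak nearest the start had 130 in replicate 2 and 208 in replicate 1. The adenylate kinase gene let-754 had 33.0 with a gap of 61 bp, and 4 replicate 1 regions up to 10.0351. Regions shared between genes gave further names: col-130 lies in an intron of ugt-65 (29.3), and the region at dpy-13 also lies 345 bp upstream of zipt-2.2.

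On X the highest was ucr-2.2, which encodes a core protein of the respiratory chain, at 30.4. Its summit also lay 40 bp past the 3′ end of the collagen gene col-41, which runs the other way inside it. The gene ftt-2 for a 14-3-3 protein had 23.5 with a gap of 162 bp, scd-1 had 21.6 with 413 bp and sdz-19 19.3 with 92 bp. Besides lin-42 and mlt-11, the genes with most regions were mbk-2, znf-782 and Y57G11C.42. The kinase gene mbk-2 had 12 of the regions and 23 of replicate 1 over 26804 bp. The zinc-finger gene znf-782 had 10, and Y57G11C.42 had 10, with none of replicate 1 at either. Over the genome, regions at most 1000 bp apart formed 3838 runs, of which 3114 were single regions and 227 held 3 or more, 892 regions in all.

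Among non-coding genes, counted with 500 bp upstream, the shares were low. The RNAs annotated only as ncRNA carried a region at 447 of 7764 (5.76%) and a highest shared one at 6.35%. Small nucleolar RNA genes stood at 20 of 346 (5.78%) against 21.1% for shared regions, microRNA genes at 11 of 261 (4.21%) against 17.2%, and small nuclear RNA genes at 3 of 129 (2.33%) against 17.8%. Transfer RNA genes, which polymerase III transcribes, stood at 30 of 612 (4.90%) against 6.05%. The other way round, piRNA genes stood at 212 of 15363 (1.38%) against 0.683%, and pseudogenes at 37 of 2128 (1.74%) against 1.08%. The highest genes outside piRNA genes and pseudogenes were ZK1290.20 at 73.3, past rol-8, and F23H12.13 at 44.4, which lies at sqt-3. Next were F59G1.12, F59G1.11 and the lin-4 gene, which share a region of 30.5 (chrII:5901950-5902299). All 3 lie within F59G1.4, a gene with 9 regions, from 5.29 to 30.5, and none of replicate 1. Such RNA genes overlap protein-coding ones, and the region cannot be given to one of them.

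In base composition the regions had a median GC of 37.0% over 300 bases around the summit, against 38.7% for the highest shared regions and 36.7% for the set absent from replicate 2. In 96.7% of them at least 90% of 31-base words occurred once in the genome, against 97.0% of shared ones. Words were searched on both strands. GAGAGA was found in 23.0% (interval 21.9 to 24.2), near the 22.8% of all 30000 replicate 2 regions. It was in 33.1% (31.8 to 34.4) of the highest shared regions, 28.5% of shared regions in the same signal range and 20.4% of the set absent from replicate 2. CACGTG was found in 5.22% (4.62 to 5.87), against 6.13% of all replicate 2 regions, 8.42% (7.66 to 9.22) of the highest shared ones, 7.59% of shared ones in the same signal range and 6.84% of the set absent from replicate 2. AGGTCA was found in 9.22% (8.43 to 10.1), against 8.06% of all replicate 2 regions and 8.58% (7.82 to 9.39) of the highest shared ones, with overlapping intervals for the latter. It was in 8.19% of shared ones in the same signal range and 7.10% (6.40 to 7.85) of the set absent from replicate 2. Of the regions over 2000 bp from replicate 1, 11.2% (9.67 to 12.8) held it. GATAA (51.5% against 51.8% in the highest shared regions), CCGGTT (6.26% against 6.38%) and TATAAA (27.6% against 25.3%) also had overlapping intervals. A word found is no evidence of binding.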

How the data were processed

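AMA-1 ChIP-seq of 2 libraries of whole L1 larvae was read from region lists. Per the notes deposited with each sample, a replicate's list came from its own alignments and a control, and a further list from both sets of alignments. No source used here names the caller, its thresholds or the read depth. The deposited signal of each region, in the authors' units, was used as it stands. The deposited −log10 q-value was used only in an alternative, since it has an upper limit that many regions share. Signal was not rescaled between libraries.

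The members and gene lists were chosen with earlier results of these data known, so no p-value is given, and with 1 group of 2 libraries no test between groups exists. Regions were compared by 1 shared base, on ce11, with ce10 as an alternative. A summit was placed at a 5′ end or, failing that, a 3′ end of a protein-coding gene if within 500 bp, then in a gene body, a non-coding gene or intergenic sequence. Genes came from Ensembl release 115. Gene lists were patterns of symbols. Intervals are exact (Clopper-Pearson) 95% binomial intervals. They cover the counting of regions or genes, which are not independent replicates.

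Genes named are the 20 with the highest member, the 3 highest of each list, the 5 highest non-coding genes outside piRNA genes and pseudogenes, the 5 highest on X and the 5 with most members, with examples drawn from each. Names outside that rule (icl-1, fil-2, rol-6, rol-8, col-17, noah-1, noah-2, blmp-1, dpy-9, nlp-33 and col-41) were chosen after their values were seen, as was the 500 bp past the 3′ end. Alternatives were 1000 members, all absent regions, a gap over 500 bp, windows of 250 and 1000 bp, other rankings and leaving out the condition on replicate 1. The placement was tested on simulated regions. Computations ran in Python 3.11.15 with pandas 2.3.3, numpy 2.4.6, scipy 1.17.1 and, for plots, matplotlib 3.10.9.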

Additional observations from a re-analysis of the deposited data

How the results depend on the processing

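Of 58 alternatives, 33 stayed within the interval or within 1.5 times the count and 25 moved further. These are shares, counts and a median, which have no sign to change. With the 1000 highest regions, 23.3% of summits lay at 5′ ends, 38.2% in gene bodies and 17.7% on X. These 1000 touched 610 genes and 26 collagen genes, 87.7% met the pooled list, and median GC was 38.3%. With all 13202 absent regions the shares were 19.2% at 5′ ends, 45.5% in bodies and 20.1% on X, with 5559 genes, 42.0% in the pooled list and a GC of 36.0%. With the 5000 highest that had no replicate 1 region within 500 bp, 19.7% lay at 5′ ends, 23.0% on X and 47.6% in the pooled list. Without replicate 1, the 5000 highest of replicate 2 had 32.8% at 5′ ends, 32.5% in bodies, 13.9% on X (under that chromosome's 17.7% of the genome), 97.2% in the pooled list and a GC of 38.7%. Leaving out replicate 2 leaves no members. Windows of 250 and 1000 bp gave 12.1% and 36.6% at 5′ ends, and 51.7% and 29.3% in bodies, by construction of the window. For the other settings the cause was not tested. Adding 500 bp past the 3′ end, chosen after seeing the data, raised the collagen genes from 48 to 58 and all genes from 2602 to 3071. On ce10, 13126 regions were absent and the highest 5000 ran from 4.43 to 71.9. No paired analysis was possible because both libraries form 1 group. Depth is unknown, so how far a region missing from a list reflects depth was not tested.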

Other observations

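Gene symbols that share a prefix give a view that needs no list, chosen after the data were seen. Among 175 prefixes with at least 10 protein-coding genes, dpy stood first, with a region at 18 of 25 genes (72%), 12 of them with no replicate 1 region, against 6 with a shared one, at a median length of 3658 bp where all protein-coding genes have 2027 bp. The prefix is given for short, dumpy mutants and holds collagens and other genes. Second were bus, che, gei and osm at 5 of 10 genes each. The che and osm genes are named for chemotaxis and osmotic avoidance. None of the 10 che genes carried one of the highest shared regions, and 2 of the 10 osm genes did. These are long genes, with medians of 7793 and 4617 bp. The tbc prefix stood at 8 of 17 (median length 6703 bp), 2 free of replicate 1. The ptr prefix stood at 11 of 24 (5953.5 bp), 8 free of replicate 1, and grd, a hedgehog-related family, at 5 of 16 (1771 bp), all 5 free of replicate 1 and none with a shared region. The lips genes, named for lipases, stood at 5 of 14 (2401.5 bp). The unc prefix, with a median length of 6931.5 bp, stood at 32 of 94, and 3 of these were free of replicate 1. Over all protein-coding genes the share was 13.0%. The col prefix of collagen genes stood far below dpy, at 32 of 156 (20.5%), 30 of them free of replicate 1. Among other prefixes of the epidermal lists, wrt stood at 4 of 10. Nearer the share of all genes were nas at 7 of 37 (18.9%), grl at 5 of 31 (16.1%) and cutl at 4 of 29 (13.8%).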
